A study of Mus musculus with 24 samples.

Results

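The comparison described here is that of bone marrow-derived macrophages (BMDMs) labelled CRE with those labelled WT, both without agonist, as measured by polyA RNA sequencing. It was made with the control BMDM libraries numbered 1 and 2, which are 4 of the 24 libraries in the series, 2 per genotype label. By the study's methods both groups came from mice carrying floxed Tmem173 alleles, and the CRE mice also carried Lyz2-Cre ert2, a tamoxifen-dependent Cre expressed from the promoter of the myeloid gene Lyz2. WT therefore means floxed without Cre, not unmodified. Tamoxifen is described there for both lines in vivo and not separately for the marrow donors. The age of the mice behind these cultures, and whether a library is a separate mouse, are not given in the labels. P-values therefore measure the spread between libraries only, here the 4 compared and the same-numbered BMDM libraries given the STING agonist DMXAA. The BMDMs were grown in medium holding supernatant of L929 cells, a mouse fibroblast line, as the study's methods describe. The control BMDM libraries numbered 3, 1 per label, were set aside because they held mostly fibroblast-type RNA, and the 6 control libraries of bone marrow-derived dendritic cells (BMDCs) served as the second cell type. The question was which transcripts differed in the basal state, before any STING agonist was added.

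Tmem173 encodes STING, an adaptor of the endoplasmic reticulum that binds the cyclic dinucleotide made by the DNA sensor cGAS. STING recruits the kinase TBK1, which activates IRF3 for interferon genes, and it also activates NF-kB, the transcription factor behind many cytokine and chemokine genes. Resting macrophages hold low, tonic levels of both programmes. NF-kB target genes are also induced by adhesion, by cytokines and by microbial products, so their basal level varies with culture.

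The 4 compared libraries held between 16941475 and 18912887 counts. They were macrophage RNA by their markers: all 15 genes of the macrophage marker list used here were detected in each. Csf1r lay between 327 and 386 FPKM and Cd68 between 1079 and 1402 FPKM. FPKM, the fragment count scaled by transcript length and library size, is the deposited level and may be compared between genes. Adgre1, the gene of the F4/80 antigen, was at 0 FPKM in both libraries numbered 3. Markers of fibroblasts had a median of 7.83 CPM (counts scaled to library size) in WT library 1, 82.0 in WT library 2, 6.49 in CRE library 1 and 7.73 in CRE library 2, against 680 and 780 in the libraries numbered 3. WT library 2 thus stood apart from the other 3. The CRE libraries resembled each other far more than the WT libraries did. Of 10613 genes tested, 841 (7.92%) were over 2-fold apart between the WT libraries and 17 (0.160%) between the CRE libraries, and the biological coefficient of variation was 32.4% within WT and 4.23% within CRE. The CRE libraries still differed by more than sampling noise (chi-square per degree of freedom 3.23) and were counted as 2 libraries. That test sets them against counting noise only, and repeat libraries of 1 culture could pass it too. Whether they are separate cultures is not stated, and the calls below rest on the small spread of this pair. Because of these unequal spreads, each gene below is given against each WT library as well as against their mean.

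Tmem173 was examined first, since it is the targeted gene. Its level was 14.7 and 9.90 FPKM in WT libraries 1 and 2, and 10.4 and 8.76 FPKM in CRE libraries 1 and 2. CRE library 1 lay above WT library 2, so the groups overlapped, and the difference of -0.40 ± 0.23 (log2, SE) did not pass the test (adjusted p = 0.780, edgeR). A count over the whole gene does not measure the floxed exons alone. Of the 24 genes listed for the STING pathway, 22 were tested and 0 were called. Their median difference was 0.02 (log2). Mb21d1, which encodes cGAS, had 6.15 and 2.72 FPKM in WT against 3.27 and 3.77 in CRE. Tbk1 had 25.2 and 25.6 FPKM in WT against 28.04 and 28.4 in CRE, and its CRE values lay above both WT values by 0.13 and 0.08 on the log2 scale.

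Across all genes, the quasi-likelihood test of edgeR called 7 genes at a Benjamini-Hochberg adjusted p under 0.05. The 5 higher in CRE were 0.0471% of the genes tested and the 2 lower were 0.0188%. At an unadjusted p under 0.05 there were 333 higher genes (3.14%) and 409 lower genes (3.85%). The exact permutation test of a single gene cannot go below a two-sided p of 0.333 with 2 libraries against 2. The groups did not overlap for 1905 genes higher in CRE (17.9%) and 2294 lower in CRE (21.6%). With the same 8 BMDM libraries, DESeq2 called 58 genes higher (0.546%) and 43 lower (0.405%), among them all 7 called by edgeR. The calls of edgeR depended on the CRE pair: without CRE library 1 or CRE library 2, 2 genes were called, and without WT library 1 or WT library 2 the counts were 202 and 4.

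The 2 genes that fell were both chemokines. Ccl2 (ENSMUSG00000035385, chromosome 11, 82035571 to 82037453), which attracts CCR2-bearing monocytes, had 62.6 FPKM in WT library 1, 83.7 in WT library 2, 23.6 in CRE library 1 and 25.4 in CRE library 2. Ccl4 (ENSMUSG00000018930, chromosome 11, 83662584 to 83664683), an inflammatory chemokine of the CC class, had 30.9, 33.0, 14.9 and 14.8 FPKM in the same order. Both CRE libraries lay below both WT libraries for each gene, and the CRE values were nearly the same. The differences were -1.62 ± 0.17 for Ccl2 and -1.15 ± 0.12 for Ccl4 (log2, SE), each with an adjusted p of 0.0481 in edgeR. CRE means were 33.5% of the WT mean for Ccl2 and 46.6% for Ccl4. These calls sat at the threshold. With the 4 compared libraries alone in the edgeR fit, the adjusted p was 0.627 for Ccl2 and 0.674 for Ccl4. With the fibroblast-type genes removed before scaling the adjusted p was 0.0532 and 0.0544, with the WT-labelled libraries alone setting the spread it was 0.00275 for Ccl2 and 0.208 for Ccl4, and without CRE library 1 it was 0.988 for both.

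Ccl7, which shares receptors with Ccl2 and lies next to it, just missed the call. Its level was 41.9 and 72.8 FPKM in WT against 9.56 and 10.9 in CRE, a difference of -2.53 ± 0.28 (log2, SE) with an adjusted p of 0.0670 in edgeR. Ccl12, a further monocyte chemoattractant of that cluster, was low, with 2.55 and 2.91 FPKM in WT (28 and 33 counts) against 0.416 and 0.938 in CRE (4 and 10 counts), and an adjusted p of 0.381. Both CRE libraries lay below both WT libraries for Ccl7 and for Ccl12. Testing required a mean of at least 1 FPKM over the 4 libraries. Ccl12 reached it through the WT libraries alone, so its order was bound to follow. DESeq2 called all 4 chemokine genes, with adjusted p-values of 4.39e-14 for Ccl2, 1.44e-09 for Ccl4, 8.13e-15 for Ccl7 and 0.0106 for Ccl12. Cells and RNA per cell cannot be told apart in such bulk samples: fewer expressing cells and less RNA in each give the same value.

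Ccl2 and Ccl7 are also fibroblast products, so their level in fibroblast-type RNA was set beside them. The libraries numbered 3 had 388 and 268 FPKM of Ccl2 and 394 and 283 FPKM of Ccl7, above every compared library, whereas Ccl4 and Ccl12 were listed at 0 in both. Summed over the 607 fibroblast-type genes defined further on, WT library 2 held 8.95% of the level of the libraries numbered 3, and WT library 1, CRE library 1 and CRE library 2 held 4.88%, 4.14% and 4.16%. The excess of WT library 2 over the other 3, 4.55% of a library numbered 3, would carry 22.1 CPM of Ccl2 and 16.0 CPM of Ccl7, which is 20.8% and 24.6% of their level in WT library 2. With the 391 of these genes that were also low in the compared libraries the excess was 3.20%, and the carried shares were 14.6% and 17.3%. The estimate is rough, since the excess of 4.55% would carry 44.7% of the Sparc and 255% of the Col1a1 of WT library 2. WT library 1 was close to the CRE libraries in this signal, and against it the CRE mean gave differences of -1.36 for Ccl2, -1.99 for Ccl7, -1.04 for Ccl4 and -1.12 for Ccl12 (log2 of TMM-scaled CPM with 0.5 added).

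NF-kB inflammatory genes were examined as a list of 88, in 4 classes, of which 63 passed the low-value filter, an average FPKM over the 4 libraries of 1 or more. Of the 63, 2 were called lower (Ccl2 and Ccl4) and 0 higher, where the shares over all genes were 0.0188% and 0.0471%. DESeq2 called 9 lower and 1 higher, where its shares over all genes were 0.405% and 0.546%. The calls of edgeR depended on the CRE pair, as given above. At an unadjusted p under 0.05 there were 28 lower and 2 higher (3.85% and 3.14% over all genes), and groups did not overlap for 36 lower and 4 higher (21.6% and 17.9% over all genes). The median difference was -0.57 (log2) beside -0.02 over all genes tested. This median rested on WT library 2: it was -0.18 against WT library 1 and -0.86 against WT library 2. A CRE mean at least 2-fold below WT library 2 was found for 27 of the 63, where the share over all genes was 3.76%. Of these 27 genes 15 were within 1.5-fold of WT library 1. The filter averages the 4 libraries, so genes such as Acod1 and Ptgs2, high in WT library 2 alone, passed through that library. Such genes were bound to lie below WT library 2, and they also enter the median and the counts above. A CRE mean at least 2-fold below WT library 1 was found for 5, where the share was 0.405%. The 4 that were 2-fold below both were Ccl2, Ccl4, Ccl7 and Ccl12, where the share over all genes was 0.141% (15 genes). Of these, Ccl12 passed the filter through the WT libraries alone, so its place below them was bound to follow. The fifth gene below WT library 1 was Gpr84, a receptor for medium-chain fatty acids, with 11.0 and 9.51 FPKM in WT against 5.57 and 5.20 in CRE. Without the fibroblast-type genes, the median over 60 NF-kB genes was -0.56. Only 3 of the 63 belonged to that set, and 0 of the tested cytokine and chemokine genes, so this median could hardly move. Ccl2, Ccl7, Csf1 and Inhba all stayed in, since the set requires at least 10 times the BMDC level.

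**Figure D1:**
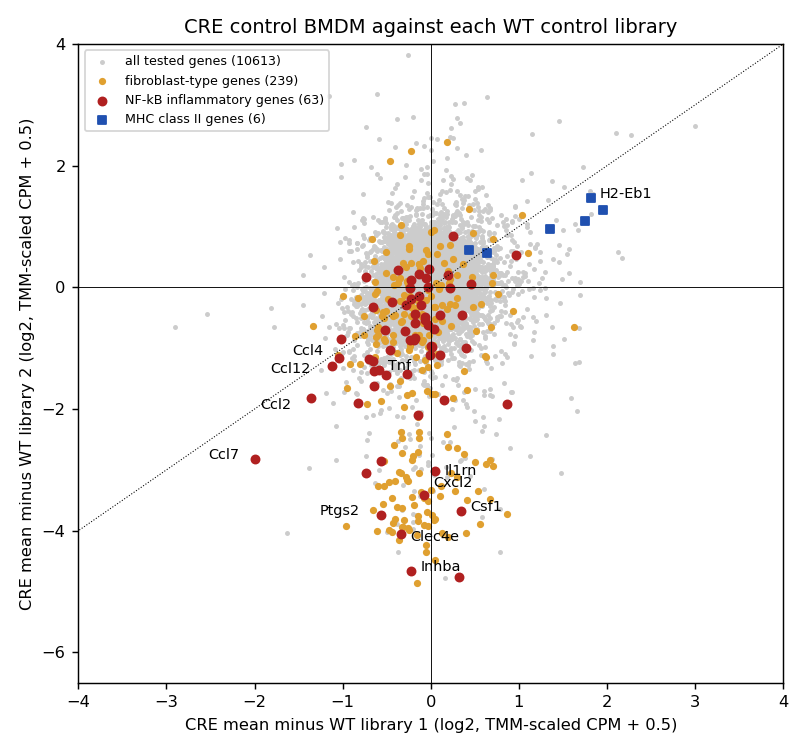
Each point is a gene, placed by the CRE mean minus WT library 1 (horizontal) and minus WT library 2 (vertical), both in log2 of TMM-scaled CPM with 0.5 added, and 5 genes lie outside the axes. Ccl2, Ccl4, Ccl7 and Ccl12 lie near the dotted diagonal, where both comparisons are equal, the MHC class II genes lie above 0 on both axes, and Il1rn, Clec4e, Csf1 and Inhba lie far below 0 on the vertical axis only, among the fibroblast-type genes.

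The cytokine class had 8 tested members of 18, with a median of -1.67 (log2), but -0.30 against WT library 1 and -2.11 against WT library 2. Tnf had 23.0 and 38.5 FPKM in WT against 16.1 and 14.9 in CRE, so both CRE values lay below both WT values, at -1.04 ± 0.30 (log2, SE, adjusted p = 0.580, edgeR). Il1rn, the antagonist of the IL-1 receptor, had 12.5 FPKM in WT library 1 and 104 in WT library 2, against 13.6 and 12.9 in CRE. Its difference from the WT mean was -2.20, and its difference from WT library 1 was 0.05. Csf1, the growth factor on which macrophages depend, had 3.67 and 59.98 FPKM in WT against 4.75 and 4.8 in CRE. Inhba, the subunit of activin A, had 1.13 and 25.5 FPKM in WT against 0.936 and 1.01 in CRE. For these 3 genes WT library 1 and the CRE libraries were alike and WT library 2 alone was high. Il1a, Il1b and Il6 stayed below the filter, at no more than 0.576 FPKM in any of the 4 libraries.

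Of 17 chemokine genes 10 were tested, with a median of -1.10, and -0.62 against WT library 1. Beside the 4 described, Ccl3, encoded near Ccl4, had 64.2 and 121 FPKM in WT against 44.5 and 47.2 in CRE, which is -0.51 and -1.44 against WT libraries 1 and 2. Cxcl2, which attracts neutrophils, had 1.61 and 18.0 FPKM in WT against 1.57 and 1.51 in CRE, and was high in WT library 2 only. Ccl6, a chemokine of the CCR1 family that macrophages express constitutively, lay the other way, at 88.7 and 117 FPKM in WT against 176 and 178 in CRE (0.73 ± 0.16, log2, SE, adjusted p = 0.413, edgeR). The chemokine genes thus did not share 1 direction.

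Subunits and feedback inhibitors of NF-kB differed less. Of 22 tested genes, 7 lay lower and 0 higher at an unadjusted p under 0.05 (3.85% and 3.14% over all genes), 0 were called, and the median was -0.31 (-0.18 against WT library 1). Nfkbia, which encodes the inhibitor IkBa and is itself a rapid NF-kB target, had 47.0 and 68.3 FPKM in WT against 35.5 and 33.6 in CRE (-0.79 ± 0.20, log2, SE, adjusted p = 0.531, edgeR). Nfkbiz, a nuclear cofactor, had 2.43 and 3.51 FPKM in WT against 1.38 and 1.70 in CRE, and belonged to the fibroblast-type genes. Nfkb2 had 15.5 and 24.2 FPKM in WT against 14.1 and 13.6 in CRE. Nfkb1 (9.73 and 8.08 in WT, 8.55 and 8.27 in CRE) overlapped between groups. Tnfaip3, the deubiquitinase A20, had 12.3 and 14.0 in WT against 14.6 and 14.4 in CRE, just above both WT values, at a difference of 0.10.

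Among 23 tested effectors of the response the median was -0.69, but -0.11 against WT library 1. Tlr2, a receptor for bacterial lipoproteins, had 26.6 and 51.1 FPKM in WT against 17.3 and 17.2 in CRE. Marcksl1, a regulator of the actin cytoskeleton, had 33.3 and 68.6 against 18.6 and 19.4, and Ehd1, a protein of endocytic recycling, had 31.2 and 42.5 against 19.2 and 19.8. For these 3 genes both CRE libraries lay below both WT libraries, and adjusted p-values in edgeR were 0.449, 0.407 and 0.25. Clec4e, the receptor Mincle, had 3.83 and 50.3 FPKM in WT against 3.28 and 2.86 in CRE. Acod1, which makes itaconate, had 0.429 and 20.6 in WT against 0.767 and 0.461 in CRE, and Ptgs2, the inducible cyclooxygenase, had 0.374 and 4.22 against 0.269 and 0.176. Clec4e, Acod1 and Ptgs2 were thus high in WT library 2 alone. Cd40 (0.978 and 2.42 in WT, 1.05 and 1.12 in CRE), Cd83 (9.42 and 11.1 in WT, 7.83 and 9.17 in CRE) and Icam1 (10.04 and 7.80 in WT, 6.72 and 6.18 in CRE) gave differences of -0.70, -0.32 and -0.51. Nos2 was listed at 0 in all 4 libraries, and Saa3 was at no more than 1.84 FPKM.

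The genes high in WT library 2 alone were not 1 group by their level in fibroblast-type RNA. In the libraries numbered 3, Csf1 had 94.9 and 90.4 FPKM, Inhba 6.48 and 47.7, and Ptgs2 17.7 and 40.3. Cxcl2 was listed at 0 in both, Clec4e had at most 0.0339 FPKM, Acod1 at most 0.0321 and Il1rn at most 3.07. The excess of 4.55% in WT library 2 would carry 8.15% of its Csf1, 5.52% of its Inhba, 35.9% of its Ptgs2 and 0.0951% of its Il1rn. What else WT library 2 held was not tested.

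**Figure D2:**
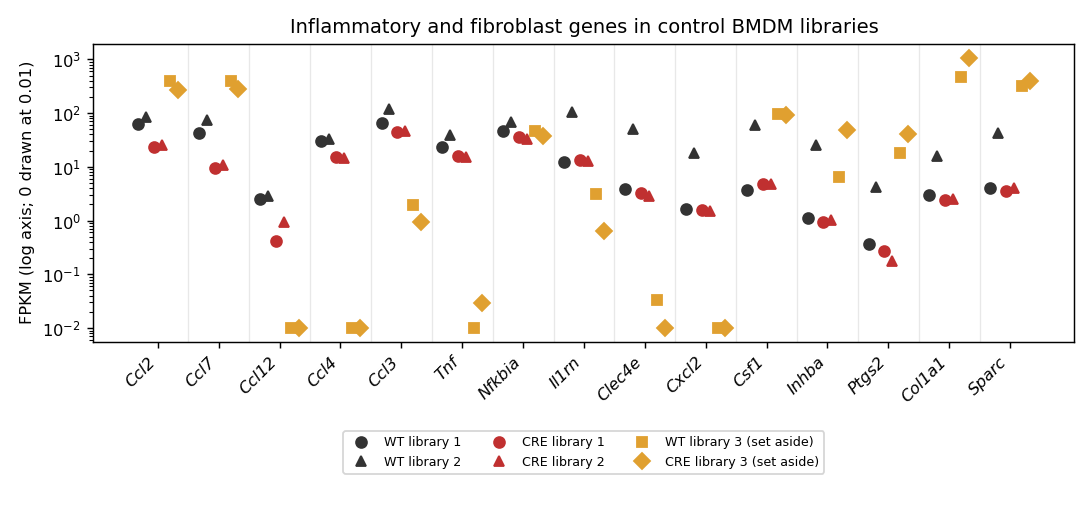
FPKM on a log axis for 15 genes in the 6 control BMDM libraries, with WT in black, CRE in red and the libraries numbered 3 in orange, and with values of 0 drawn at 0.01. The chemokine genes on the left are lower in both red points than in both black points. From Il1rn to Sparc the black triangle, WT library 2, stands well above the red points. The other black point lies nearer to the red points, for some genes slightly above them.

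Promoters of the list were read for the NF-kB consensus on both strands, in windows of 300 bases from 250 before to 50 after the start, from RefSeq (GRCm38.p6). Of the 63 tested NF-kB genes, 46 had a window and 18 of these (39.1%) held a match, beside 9.55% of 27025 genes with a window. That is a property of a list made of NF-kB targets, not of this comparison. The matches of Nfkbia and Tlr2, lower in CRE than in both WT libraries, and of Cxcl2, high in WT library 2 only, are shown with the match in capitals to set both behaviours side by side. They lie on chromosome 12 at 55492648 to 55492696, chromosome 3 at 83841751 to 83841801 and chromosome 5 at 90903782 to 90903832. The Nfkbia and Tlr2 stretches are read from the minus strand and that of Cxcl2 from the plus strand, and the capitals of Cxcl2 and Tlr2 cover overlapping matches on both strands.
Nfkbia: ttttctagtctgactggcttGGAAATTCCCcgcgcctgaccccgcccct
Tlr2: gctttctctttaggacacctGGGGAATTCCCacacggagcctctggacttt
Cxcl2: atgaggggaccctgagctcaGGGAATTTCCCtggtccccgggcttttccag
The first capital lies 29, 173 and 97 bases before the start in Nfkbia, Tlr2 and Cxcl2. The windows of Ccl3, Ccl12 and Tnf held no match to these letters, and Ccl2, Ccl4 and Ccl7 had no window in the table.

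Interferon-stimulated genes, the other output of STING, had a median near 0. Of 57 genes 43 were tested, 0 were called, and the median difference was 0.05 (log2), or -0.01 and -0.03 against WT libraries 1 and 2. At an unadjusted p under 0.05, 1 gene lay higher and 2 lower, where the shares over all genes were 3.14% and 3.85%. Isg15, a ubiquitin-like modifier, had 4.34 and 13.5 FPKM in WT against 3.55 and 4.87 in CRE, and was high in WT library 2 only. Irf7, the transcription factor that amplifies interferon production, had 1.66 and 2.45 in WT against 1.41 and 1.62 in CRE. Usp18, an inhibitor of interferon receptor signalling, had 0.895 and 1.72 FPKM in WT against 0.862 and 0.596 in CRE, and Ifi27l2a had 35.2 and 24.6 against 41.1 and 46.4. Ifit1 stayed below the filter with 0.645 and 1.78 FPKM in WT against 0.632 and 0.930 in CRE, and Ifnb1 was listed at 0 in all 4.

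**Figure D3:**
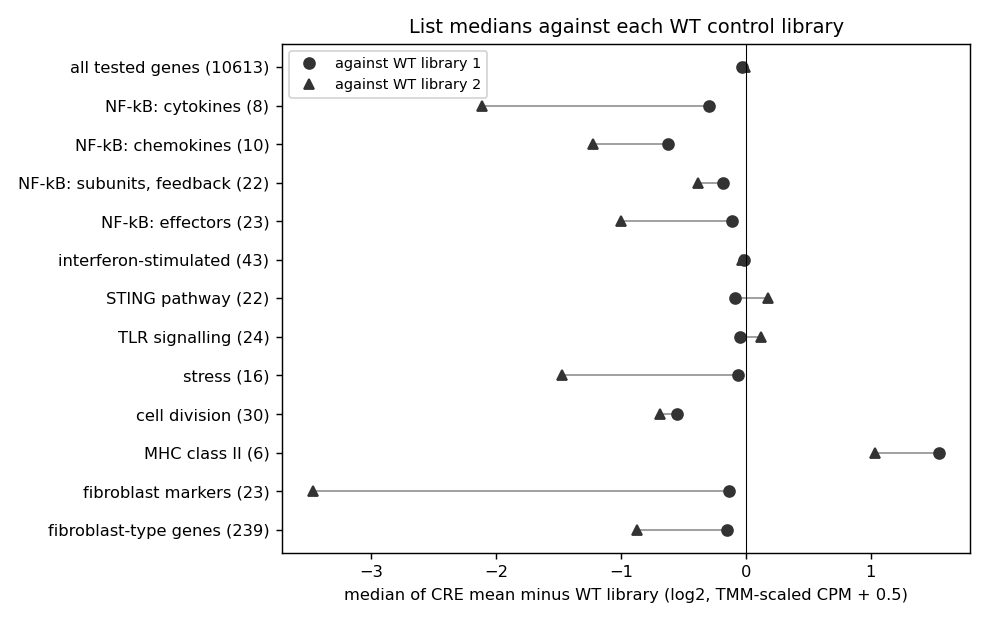
Median over each list's tested genes (number in parentheses) of the CRE mean minus WT library 1 (circles) and minus WT library 2 (triangles), in log2 of TMM-scaled CPM with 0.5 added. Interferon-stimulated genes lie at -0.01 and -0.03, NF-kB cytokines at -0.30 and -2.11, MHC class II genes at 1.55 and 1.03 and fibroblast markers at -0.14 and -3.47.

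MHC class II genes lay higher in CRE against each WT library. They were taken out of a list of 16 antigen presentation genes after their values were seen, and 6 of the 7 class II members were tested. H2-Aa and H2-Ab1 encode chains of the I-A molecule and H2-Eb1 a chain of I-E, which present peptides to CD4+ T cells. H2-Eb1 had 3.60 and 4.56 FPKM in WT against 13.4 and 14.8 in CRE. H2-Aa had 3.21 and 5.21 in WT against 14.0 and 12.96 in CRE. H2-Ab1 had 4.40 and 6.92 in WT against 15.2 and 16.5 in CRE. For each of the 3, the lower CRE library was above the higher WT library.

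Cd74, the invariant chain that escorts class II molecules, had 28.1 and 35.9 FPKM in WT against 74.2 and 73.0 in CRE. H2-DMa and H2-DMb1, which form the peptide editor H2-M, had 11.6 and 11.9, and 20.7 and 17.8, in WT against 19.3 and 17.9, and 28.4 and 29.1, in CRE. All 6 had an unadjusted p under 0.05 and groups that did not overlap, where the shares over all genes were 3.14% and 17.9%, and 0 of 6 passed the adjusted threshold in edgeR (the lowest was 0.115, for H2-Eb1, at 1.74 ± 0.23, log2, SE). DESeq2 called H2-Eb1, H2-Aa, H2-Ab1 and Cd74, with adjusted p-values from 4.55e-05 to 3.23e-07, and not H2-DMa (0.0560) or H2-DMb1 (0.158). Their median was 1.30 over all 6, and 1.55 and 1.03 against WT libraries 1 and 2. Class I genes differed less, with H2-K1 at 0.03 and H2-D1 at 0.25. Ciita, the master activator of class II transcription, stayed below the filter, at 0.0154 and 0.0348 FPKM in WT (3 and 7 counts) against 0.0586 and 0.0740 in CRE (10 and 14 counts).

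The class II promoters share a Y box, bound by the factor NF-Y. The letters TGATTGG, searched on both strands, were found in 3 of 4 members with a window, beside 9% of 27025 genes. That is a property of class II genes, not of this comparison. The 3 stretches that held a match are shown, with these letters in capitals. They lie on chromosome 17 (GRCm38.p6) at 34305786 to 34305832 on the plus strand, 34287847 to 34287893 on the minus strand and 34153108 to 34153154 on the plus strand.
H2-Eb1: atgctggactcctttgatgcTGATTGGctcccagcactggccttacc
H2-Aa: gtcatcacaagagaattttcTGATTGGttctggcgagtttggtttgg
H2-DMb1: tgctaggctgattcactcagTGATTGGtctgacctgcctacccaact
The first capital lies 61, 50 and 63 bases before the start. The window of H2-DMa held no match, and H2-Ab1 and Cd74 had no window in the table.

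Dendritic cells express class II genes strongly, so dendritic markers were read beside them. Of 11 dendritic marker genes 2 were tested. Itgax, the gene of CD11c, had 45.1 and 45.5 FPKM in WT against 98.2 and 98.2 in CRE, and Batf3 had 1.53 and 0.208 in WT against 1.72 and 2.71 in CRE. Flt3, Zbtb46, Ccr7, Clec9a, Cd209a, Ccl17, Ccl22, Xcr1 and Irf4 stayed below the filter. Itgb2, the partner chain of CD11c and CD11b, had 326 and 308 FPKM in WT against 554 and 552 in CRE, and Atf3, a stress-induced transcription factor, had 135 and 120 against 216 and 217. Itgax, Itgb2 and Atf3 were called by DESeq2 (adjusted p-values 0.000484, 1.59e-09 and 2.59e-06) and not by edgeR (0.346, 0.137 and 0.182). Neutrophil markers were also read: S100a9 had 6.66 and 4.81 FPKM in WT against 15.1 and 13.3 in CRE, and Ngp 3.53 and 0.776 against 5.08 and 6.06, and 7 of 11, Ly6g and Mpo among them, stayed below the filter. The summed level was 248 and 251 CPM in WT against 504 and 505 in CRE over the dendritic markers, most of it Itgax, and the median over the dendritic markers was 0.275 and 0.370 CPM in WT against 0.236 and 0.106 in CRE. The summed level of the neutrophil markers was 48.9 and 39.5 CPM in WT against 63.0 and 63.2 in CRE. Their median was 0.604 and 0.211 CPM in WT against 0.590 and 0.690 in CRE, so the medians overlapped. The part of such cells in these differences was not tested.

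Lyz2, from whose promoter the Cre is expressed, was the most abundant of the macrophage markers and lay lower in CRE. It had 9222 and 10806 FPKM in WT against 5101 and 5158 in CRE, so that the CRE mean was 51.2% of the WT mean (-1.01 ± 0.17, log2, SE). Both CRE libraries lay below both WT libraries. The adjusted p was 0.233 in edgeR and 1.49e-05 in DESeq2. Whether the transgene replaces part of the Lyz2 locus is not stated in the labels. Of the 15 macrophage markers, 2 lay below both WT libraries in both CRE libraries (Lyz2 and Cd14) and 4 above. These were 13.3% and 26.7% of the list, where the shares over all genes were 21.6% and 17.9%. Cd14, the co-receptor for lipopolysaccharide, had 261 and 600 FPKM in WT against 206 and 201 in CRE. Adgre1 had 296 and 208 in WT against 289 and 291 in CRE, and Gpnmb, a glycoprotein of lipid-laden macrophages, had 2241 and 1846 in WT against 3172 and 3167 in CRE.

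**Figure D4:**
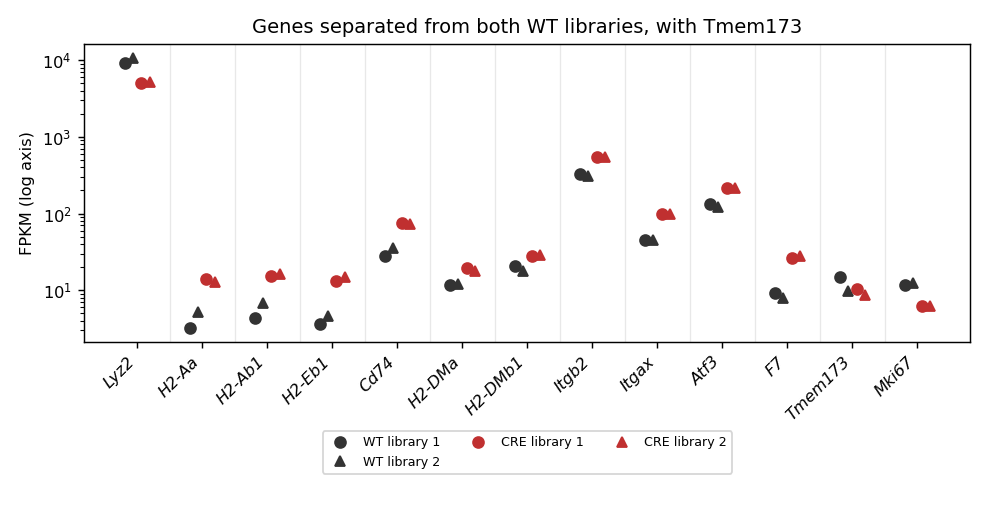
FPKM on a log axis for Lyz2, the 6 MHC class II genes and 6 further genes in the 4 compared libraries, with WT in black and CRE in red. Both red points lie above both black points for the class II genes, Itgb2, Itgax, Atf3 and F7, and below them for Lyz2 and Mki67, while the Tmem173 points interleave.

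The CRE mean lay at least 2-fold above both WT libraries for 26 genes (0.245%), some of which were picked here after their values were seen. F7, coagulation factor VII, had 9.09 and 8.03 FPKM in WT against 25.9 and 28.1 in CRE (1.61 ± 0.20, log2, SE, adjusted p = 0.103, edgeR). Dcstamp and Ocstamp, which macrophages need for cell fusion, had 2.70 and 3.31 FPKM, and 0.562 and 0.143 FPKM, in WT against 10.9 and 9.93, and 1.90 and 1.75, in CRE. Alas1, the first enzyme of haem synthesis, had 25.5 and 37.3 against 81.2 and 80.1. Galnt9, a glycosyltransferase, had 2.61 and 2.13 against 9.45 and 9.04, and Ak8, an adenylate kinase, 1.2 and 1.42 against 4.75 and 5.30. None of these 6 was called by edgeR, and their CRE libraries lay within 0.16 of each other on the log2 scale. Among the calls of DESeq2 were Dcstamp, F7, Galnt9 and Alas1, with adjusted p-values of 6.61e-09, 1.90e-08, 7.53e-08 and 0.000361. Among the 26 genes, Ocstamp, Gm17222, Vsig8 and Hist1h2al were under 1 FPKM in both WT libraries. They passed the low-value filter through the CRE libraries alone, so their place above WT was bound to follow.

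Genes of DNA replication and cell division lay lower in CRE. All 30 listed genes were tested, 0 were called, 8 had an unadjusted p under 0.05 and were lower (3.85% over all genes), and groups did not overlap for 24 lower and 1 higher, where the shares over all genes were 21.6% and 17.9%. The median was -0.71, with -0.55 and -0.69 against WT libraries 1 and 2, so unlike the NF-kB median it did not rest on WT library 2. Mki67, a marker of cycling cells, had 11.6 and 12.3 FPKM in WT against 6.25 and 6.15 in CRE (-0.99 ± 0.25, log2, SE). Its adjusted p was 0.505 in edgeR and 0.0277 in DESeq2. Cenpe, a kinetochore motor, had 3.05 and 3.44 against 2.08 and 1.801. Pcna was the gene above both WT libraries, with 289 and 184 FPKM in WT against 300.4 and 295 in CRE. The libraries numbered 3 had 17.3 and 15.3 FPKM of Mki67, above the WT libraries.

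The stress list had a median of -0.997, but -0.06 against WT library 1 and -1.47 against WT library 2. Chac1 (0.449 and 3.68 FPKM in WT, 0.171 and 0.215 in CRE) and Asns (15.0 and 35.3 in WT, 11.0 and 11.3 in CRE), both targets of the amino acid response, were highest in WT library 2. Chac1 passed the filter through WT library 2 alone, so its place below that library was bound to follow. Glycolytic genes had a median of -0.31 (-0.15 and -0.34 against WT libraries 1 and 2), with Pfkl at 18.1 and 17.5 FPKM in WT against 12.99 and 12.6 in CRE. Sterol genes had a median of 0.24 (0.05 and 0.49), with Hmgcs1 at 24.7 and 18.5 against 37.6 and 37.3. Toll-like receptor signalling genes had a median of 0.01 and immediate early genes of -0.23, among which Egr1 (1.77 and 2.30 in WT, 2.06 and 1.28 in CRE) and Fos (52.1 and 33.8 in WT, 40.2 and 40.3 in CRE) overlapped. In the IL-12 family, Ebi3 had 17.9 and 20.4 FPKM in WT against 17.8 and 15.8 in CRE, and 8 of 10 members stayed below the filter.

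Fibroblast-type genes were told apart with libraries outside the comparison. A gene counted as such where the control BMDM libraries numbered 3 had at least 10 times the CPM of the 6 control BMDC libraries and a mean of at least 5 FPKM, which gave 607 genes, 239 of them tested. Their median difference was -0.70, with -0.15 against WT library 1 and -0.87 against WT library 2, and 117 lay lower and 19 higher without overlap, where the shares over all genes were 21.6% and 17.9%. Of 23 tested fibroblast markers the median was -2.70, and it was -0.14 and -3.47 against WT libraries 1 and 2. The low-value filter averages the 4 compared libraries, so genes high in WT library 2 alone passed through that library. Such genes were bound to lie below WT library 2, and they enter these medians and counts. Col1a1, a collagen chain, had 3.02 and 15.8 FPKM in WT against 2.37 and 2.53 in CRE, and 465 and 1081 in the libraries numbered 3. Sparc, a matrix glycoprotein, had 3.98 and 42.0 FPKM in WT against 3.57 and 4.11 in CRE, and 316 and 397 in the libraries numbered 3. WT library 1 and the CRE libraries were thus close, and WT library 2 stood above them. Some of the largest negative differences outside this set had the same pattern: Hspb1, a small heat shock protein, had 0.712 and 14.6 FPKM in WT against 0.651 and 0.489 in CRE, Cyp1b1 2.39 and 27.98 against 1.54 and 1.87, and Ctgf, a matricellular protein that is itself on the fibroblast marker list, 4.81 and 76.7 against 4.12 and 3.42. Hspb1 passed the low-value filter through WT library 2 alone, so its place below that library was bound to follow. Hspb1, Cyp1b1 and Ctgf also reached the minimum of 5 FPKM for the largest falls through WT library 2 alone. Cd200, the ligand of an inhibitory myeloid receptor, lay lower against both WT libraries, with 2.40 and 13.2 in WT against 0.640 and 0.728 in CRE.

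The 5 genes called higher were annotated pseudogenes or copies of other genes, where reads can be assigned to more than 1 place. Rps3a2 (chromosome 14, 88123017 to 88123808) and Rps3a3 (chromosome 13, 108670603 to 108671397) are processed pseudogenes of Rps3a1 (chromosome 3, 86137940 to 86142702), a ribosomal protein gene. Rps3a2 had 2.35 and 3.71 FPKM in WT against 137 and 131 in CRE (5.41 ± 0.26, log2, SE, adjusted p = 0.00194, edgeR), and Rps3a3 2.16 and 3.995 against 161 and 166 (5.68 ± 0.30, adjusted p = 0.00211, edgeR). Rps3a1 itself had 611 and 809 FPKM in WT against 403 and 416 in CRE. In the 795 coding bases of Rps3a1 taken from GENCODE vM21 transcripts on GRCm38, Rps3a2 was 99.5% identical over 792 bases and Rps3a3 98.9% over 795. The stretch of 60 coding bases from 201 to 260 is shown, with the positions where a copy differs from Rps3a1 in capitals, because so few letters separate the copies.
Rps3a1: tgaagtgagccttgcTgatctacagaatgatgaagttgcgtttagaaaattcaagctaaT
Rps3a2: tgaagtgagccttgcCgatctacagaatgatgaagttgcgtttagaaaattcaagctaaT
Rps3a3: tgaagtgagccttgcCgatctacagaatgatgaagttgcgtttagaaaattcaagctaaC
Rps3a2 differs from the parent at 1 position here and Rps3a3 at 2.

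The sum of the 3 genes differed less than its parts, with 674 and 888 CPM in WT against 665 and 676 in CRE. Of that sum the copies took 0.595% and 0.768% in WT, and 37.5% and 36.7% in CRE. This share did not follow the genotype label over the series. In 6 of the 24 libraries it lay between 36.7% and 40.1%, and in the other 18 between 0.543% and 0.919%. The 6 were the CRE BMDM libraries numbered 1 and 2, control and DMXAA, and the WT BMDC libraries numbered 1, control and DMXAA. The CRE BMDM control library numbered 3 had 0.704%. Within the 4 compared libraries the share goes with the label, so whatever it marks cannot be told apart from the genotype in any difference given here.

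Tpm3-rs7, a related sequence of the tropomyosin gene Tpm3, had 31.6 and 22.9 FPKM in WT against 142 and 136 in CRE (2.31 ± 0.22, log2, SE, adjusted p = 0.0384, edgeR), and its share of the family's counts separated the same 6 libraries, at 35.5% to 39.4% against 5.84% to 8.67% in the other 18. Gm3608, a pseudogene, had 4.75 and 3.93 FPKM in WT against 25.5 and 22.8 in CRE, and 11.9 and 11.6 in the libraries numbered 3. Hist1h2al, a histone H2A pseudogene, had 0 counts in both WT libraries, and 128 and 185 counts in CRE, at least 52.7-fold higher against a floor of 3 counts per library. It passed the low-value filter through the CRE libraries alone, so its place above WT was bound to follow. It had 24.5 and 18.4 FPKM in the libraries numbered 3 and at most 0.300 in control BMDCs, and it belonged to the fibroblast-type genes. What sets these libraries apart was not tested.

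**Figure D5:**
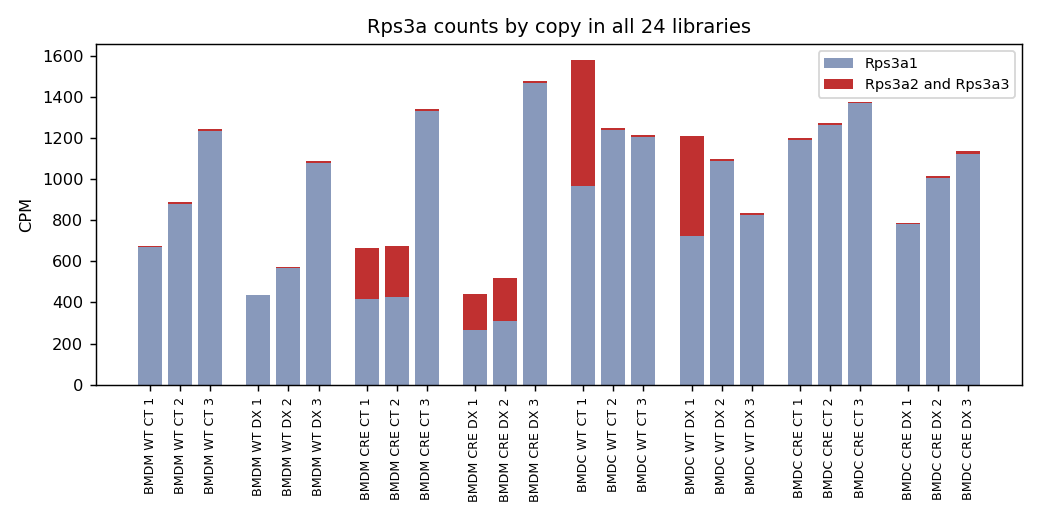
CPM of Rps3a1 (blue) and of Rps3a2 and Rps3a3 together (red), stacked by library for all 24 libraries, in groups of 3 by cell type, genotype label and control (CT) or DMXAA (DX). A red part of over 36% is seen in CRE BMDM libraries 1 and 2 of both treatments and in WT BMDC library 1 of both, and under 1% elsewhere.

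In control BMDCs the same comparison, 3 libraries against 3, called 0 of 11019 genes (0%) by edgeR and 0 by DESeq2, with 73 and 92 at an unadjusted p under 0.05. The chemokine genes were high in both labels there: Ccl2 had 229, 275 and 302 FPKM in WT and 288, 269 and 289 in CRE, and Ccl7 had 94.9, 148 and 179 in WT and 175, 178 and 169 in CRE. CRE BMDC library 2 stood apart, with a chi-square per degree of freedom of 134 and 141 against the other CRE BMDC libraries, which gave 18.8 between them, and with 128 FPKM of Il1rn against 15.0 to 23.8 in the other 5. NF-kB genes had a median of 0.21 over 74 tested, or 0.07 without that library, and MHC class II genes of -0.46 over 7, or -0.25 without it. H2-Eb1 ranged from 182 to 440 FPKM in WT BMDCs and from 141 to 306 in CRE BMDCs, so its groups overlapped. Lyz2 had 5963, 4031 and 5143 FPKM in WT and 5035, 927 and 4287 in CRE. WT BMDC library 1 also stood apart, at 52.6 and 52.3 against the other WT BMDC libraries, which gave 14.2 between them (chi-square per degree of freedom). It held the large share of Rps3a copies (38.7%), and its Ccl2 and Ccl7 were the lowest of the control BMDC libraries.

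The difference between BMDMs and BMDCs in the CRE against WT effect was tested directly with an interaction term over 20 libraries. It passed the threshold for 3 of 11643 genes (0.0258%): Ccl7 at -2.81 (adjusted p = 0.00646), Gm3608 at 2.65 (adjusted p = 0.00646) and F7 at 1.64 (adjusted p = 0.0165, all edgeR, log2, BMDM minus BMDC). Ccl2 was just outside at -1.67 (adjusted p = 0.0506, edgeR). The interaction was not refitted without WT BMDC library 1, where Ccl2 and Ccl7 were lowest among control BMDCs. F7 had between 62.7 and 81.0 FPKM in the 6 control BMDC libraries, above all control BMDM libraries. For H2-Eb1 the interaction was 2.29 with an adjusted p of 1.0 in edgeR, and the 3 genes that passed included no class II gene. A difference between cell types in the class II genes was thus not shown.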

How the data were processed

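RNA libraries of BMDMs and BMDCs (24, in 8 groups of 3) were analysed from the deposited table of 54532 genes. The authors deposited raw counts per gene and FPKM values, which they scaled by gene length and library size. The submitters' processing notes list fastp, HISAT2 2.0.5, featureCounts 1.5.0-p3, DESeq2 1.20.0, and the builds GRCm38 and mm10. Strandedness is not given in the sources used here. The deposited log2 fold changes, p-values and adjusted p-values of the authors' own comparisons were not used.

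Groups came from the labels. All columns were matched to a library. The members and gene lists were chosen with earlier results of these data known. The genes whose FPKM averaged 1 or more over the 4 compared libraries were tested with edgeR 4.0.16 (R 4.3.3, TMM, quasi-likelihood, two-sided) in 1 fit of the 8 BMDM libraries numbered 1 and 2 (4 groups), and the BMDC effect in the 12 BMDC libraries. A call needed an adjusted p (Benjamini-Hochberg) below 0.05. The SE is the size of the fitted difference over the root of its F statistic. DESeq2 1.42.0, limma 3.58.1, other scalings, filters, samples and a replicate block were alternatives, and so were taking the spread from the WT-labelled libraries alone and refitting the interaction, both chosen after seeing the data. The differences against each WT library, the 2-fold counts and the excess of fibroblast-type signal were also computed after the data were seen. The edgeR fit was tested on simulated data. Genes named in the text were a fixed list, all called genes, the 6 largest rises and falls outside the fibroblast-type set with at least 5 FPKM in the higher group and no overlap, and the 2 members of each list with the smallest p, and other genes were chosen after their values were seen. The fit treats control and DMXAA libraries of 1 number as independent. Reads carry no molecular identifiers, so counting error covers counts only. Figures were drawn with matplotlib 3.10.9.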

Additional observations from a re-analysis of the deposited data

Results flagged for a closer look

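The CRE against WT difference without agonist differed between BMDMs and BMDCs by the interaction test for 3 genes, which were Ccl7 (-2.81, log2, BMDM minus BMDC), Gm3608 (2.65) and F7 (1.64). Ccl7 had 41.9 and 72.8 FPKM in WT and 9.56 and 10.9 in CRE BMDMs. With median of ratios scaling the adjusted p-values (edgeR) were 0.00687 for Ccl7, 0.00687 for Gm3608 and 0.0215 for F7. With the 10 control libraries alone they were 0.212, 0.197 and 0.212, and leaving out 1 compared BMDM library gave 0.00137 to 0.104 for Ccl7, 0.00785 to 0.116 for Gm3608 and 0.0179 to 0.438 for F7, and without CRE BMDC library 2 they were 0.0114, 0.00557 and 0.0702, alternatives chosen after seeing the data. A refit of the interaction without WT BMDC library 1 was not made. No group of 4 to 10 samples was in the comparison, so single libraries were not screened by a gap test.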

How the results depend on the processing

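The count of genes called for CRE against WT control BMDM was 7. It became 700 (134 higher, 566 lower) with no low-value filter, 101 with DESeq2, 11 with limma on log2(FPKM + 1), 4 with the replicate block, 4 with the fibroblast-type genes removed, 0 with the 4 compared libraries only (711 at an unadjusted p under 0.05) and 0 with all 12 BMDM libraries (32 at an unadjusted p under 0.05); leaving out 1 library gave from 2 (without either CRE library) to 202 (without WT library 1). Whether the numbers pair libraries is not settled: the deviations of same-numbered libraries correlated at 0.0087 between the compared groups, but at 0.657 between control and DMXAA in WT and at 0.0391 in CRE. With the block Ccl2 and Ccl4 had adjusted p-values of 0.0574 and 0.0611 (edgeR). The cause of these changes was not tested. With scaling by the median of ratios all 7 genes were called. The NF-kB median of -0.57 ranged from -0.88 without WT library 1 to -0.19 without WT library 2 and was otherwise within its replicate SD of 0.30. The interferon-stimulated median of 0.05 was 0.12 with a mean FPKM of at least 5 and -0.14 with all 12 BMDM libraries, and ranged from -0.0327 to 0.0939 on leaving out 1 library. The fibroblast-type median of -0.70 was -1.73 with no low-value filter and -0.0339 with all 12 BMDM libraries, and ranged from -0.98 to -0.17 on leaving out 1 library. The interaction count of 3 was 0 with the 10 control libraries only and ranged from 0 to 62 on leaving out 1 BMDM library, with 1 (Ccl7) without WT library 2, and 2 without CRE BMDC library 2, chosen after seeing the data. BMDC counts stayed at 0 in each alternative. Of 1068 alternative values for 73 named genes, 946 kept their side of the threshold, 36 lost a call, 86 gained one and 0 called values changed sign. With 2 libraries per group, differences in genes of few counts may not be detectable.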
